A study of Mus musculus with 3 samples.

Results

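The genes described here were myeloid transcription factors, chosen by name from the count table: *Spi1*, *Cebpa*, *Cebpb*, *Cebpd*, *Cebpe* and *Irf8*. Of these 6 genes, 5 were measured among the 27994 genes of the table, and *Cebpd* was not analysed here. The cells were adult cardiac endothelium of female GFP transgenic mice, sorted as CD31+ VE-Cad+ and negative for CD41, CD45, PDGFRA and PDGFRB. They were collected fresh (0 h) and after 24, 48, 72 and 96 h of co-aggregation with *Mesp1*der PSCs, PDGFRA+ stromal cells of the E11.5 aorta-gonad-mesonephros carrying a *Mesp1*-driven DsRed lineage mark, and sorted again as GFP+ CD31+ VE-Cad+ PDGFRA−. All times were pooled before single-cell RNA sequencing, in 3 pools. A control without stroma and the time of each cell were not analysed here, so a difference between clusters cannot be read as a change with time or as an effect of the stroma.

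The table held 9562 cells with between 4393 and 185197 unique molecular identifiers (UMIs, counted RNA molecules), in 7 clusters numbered by the authors from the highest *Cdh5* (cluster 0) to the highest *Runx1* (cluster 6). Cell barcodes carried 1 of 3 suffixes, which no label defines or ties to a pool. Median depth differed between them, at 23651 UMIs for suffix 1, 13440.5 for suffix 2 and 38312 for suffix 3. The matrix was therefore treated as 1 sample. No test between groups was made, intervals are exact 95% intervals that cover counting error only, and the value of each suffix is given as the spread. There were 13 barcodes shared between suffixes, 5 of them in the same cluster. The study's methods describe a filter for singlets before deposit, and the doublet caller Scrublet marked 8 of the 9562 cells, which were kept. Clusters 0, 1 and 2 were the endothelial ones, in which the levels of 6 endothelial markers (*Cdh5* and *Pecam1* among them) summed to between 30.8 and 42.5 UMIs per 10,000. The same sum was 4.51 in cluster 5 and 5.73 in cluster 6. Because the clusters had been made from these same transcriptomes, the member genes included, the differences between clusters below are descriptions.

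*Spi1* encodes PU.1, the ETS-family factor without which macrophages and normal granulocytes do not form. The C/EBP proteins are basic leucine zipper factors. C/EBPα drives the entry of progenitors into the granulocyte and monocyte lineage, C/EBPε acts late in granulocytes and turns on secondary granule genes, and C/EBPβ acts in macrophages, in emergency granulopoiesis and in the inflammatory response of many other cells, endothelium included. IRF8 binds DNA with PU.1, favours monocytes and dendritic cells over neutrophils, and is induced by interferon.

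The 5 measured genes lie on 4 chromosomes of the GRCm38 mouse genome and are all annotated as protein coding. *Spi1* (ENSMUSG00000002111) is at chr2:91082390-91115756 on the forward strand and *Cebpb* (ENSMUSG00000056501) at chr2:167688915-167690418 on the forward strand. *Cebpa* (ENSMUSG00000034957) is at chr7:35119293-35121928 and *Irf8* (ENSMUSG00000041515) at chr8:120736358-120756694, both on the forward strand. *Cebpe* (ENSMUSG00000052435) is at chr14:54710360-54712174 on the reverse strand. Levels below are UMIs of a gene per 10,000 UMIs of all genes, summed over the cells of a group, and are compared within a gene and not between genes.

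*Spi1* was concentrated in cluster 5, which held 95.4% of its 21631 UMIs. Its level there was 3.38 UMIs per 10,000 (95% interval 3.33 to 3.43), with 3.37, 3.15 and 3.54 in suffixes 1, 2 and 3. Cluster 1 followed at 0.370 (0.470, 0.426 and 0.184), cluster 6 at 0.222 (0.222, 0.225 and 0.219) and cluster 0 at 0.129 (0.110, 0.162 and 0.118). Clusters 3, 4 and 2 were lowest, at 0.0378, 0.0177 and 0.0164. The suffix ranges of clusters 1 and 6 overlapped, as did those of clusters 3, 4 and 2, whereas cluster 5 stood apart from all others. After every cell had been thinned to 5000 UMIs to equalise depth, 69.2% of 1568 cells of cluster 5 had at least 1 *Spi1* UMI. The share was 11.7% in cluster 6 and 1.56% in cluster 2, the large endothelial cluster. Cluster 2 is given here as a low reference, in which free RNA and expression were not separated. The median depths before thinning were 36065.5 UMIs in cluster 5, 32186 in cluster 6 and 22493 in cluster 2.

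*Irf8* had a broader distribution, with 86.1% of its 8601 UMIs in cluster 5 and 7.82% in cluster 1. Cluster 5 had 1.21 UMIs per 10,000 (1.19, 1.20 and 1.25) and cluster 1 had 0.80 (0.840, 0.803 and 0.740). The other clusters lay between 0.0127 (cluster 0) and 0.0446 (cluster 6), and their suffix ranges overlapped from each to the next. At 5000 UMIs per cell *Irf8* was detected in 33.8% of cells of cluster 5 and 26.2% of cells of cluster 1, against 1.71% for cluster 2. Clusters 5 and 1 thus held nearly all *Irf8*, and cluster 5 was the higher in every suffix, by 1.52-fold over cluster 1 in all.

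*Cebpb* was the exception, with its highest level over all cells of a cluster in the endothelial cluster 1. There it reached 4.25 UMIs per 10,000 (4.98, 3.60 and 3.63), against 2.99 (3.27, 2.71 and 2.85) in cluster 5. Cluster 1 exceeded cluster 5 by 1.42-fold (log2 0.51, 95% interval 0.45 to 0.56), and the ranges of the suffixes did not overlap. Without the cells of cluster 1 that had leukocyte genes (*Ptprc*, *C1qb* or *Tyrobp*), it was at 3.19 there, or 1.07-fold of cluster 5 (log2 0.09, interval 0.03 to 0.16), higher in suffixes 1 and 3 and lower in suffix 2 (−0.31). Next came cluster 4 at 0.760 (0.875, 0.599 and 0.747), 4.81-fold above cluster 2. The remaining clusters lay between 0.158 (cluster 2) and 0.282 (cluster 0), and their suffix ranges overlapped from each to the next. By the share of cells the order of the first 2 was the opposite. At 5000 UMIs, 62.9% of cells of cluster 5 and 49.5% of cells of cluster 1 had a *Cebpb* UMI, compared with 18.8% in cluster 4 and 7.83% in cluster 2. Cluster 1 therefore had the smaller share of positive cells and the higher summed level.

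*Cebpa* was low everywhere. Its level was 0.199 UMIs per 10,000 in cluster 5 (0.198, 0.160 and 0.228), 0.0951 in cluster 1 (0.0925, 0.129 and 0.0751) and at most 0.0110 elsewhere. Cluster 5 was above cluster 1 in all 3 suffixes, and cluster 1 was above cluster 4, the next in order. At 5000 UMIs, 9.44% of cells of cluster 5, 3.09% of cells of cluster 1 and 0.223% of cells of cluster 2 had a UMI.

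*Cebpe* was found almost only in cluster 5, with 881 of its 918 UMIs there, or 96.0%. The level in cluster 5 was 0.144 UMIs per 10,000, with 0.220, 0.0857 and 0.0951 in the 3 suffixes, the widest spread relative to its level of the 5 genes there. Clusters 1 and 6 had no UMI of it, and a count of 3, the most that a count of 0 is taken to allow, would be 0.00357 and 0.00279 per 10,000. These UMIs sat in very few cells. In cluster 5 only 85 of 1572 cells had any *Cebpe*, and 9 cells held at least 50% of its UMIs, with up to 92 UMIs in 1 cell. For comparison, 293 cells were needed to reach the same share of *Spi1* and 239 for *Cebpb*.

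**Figure D1:**
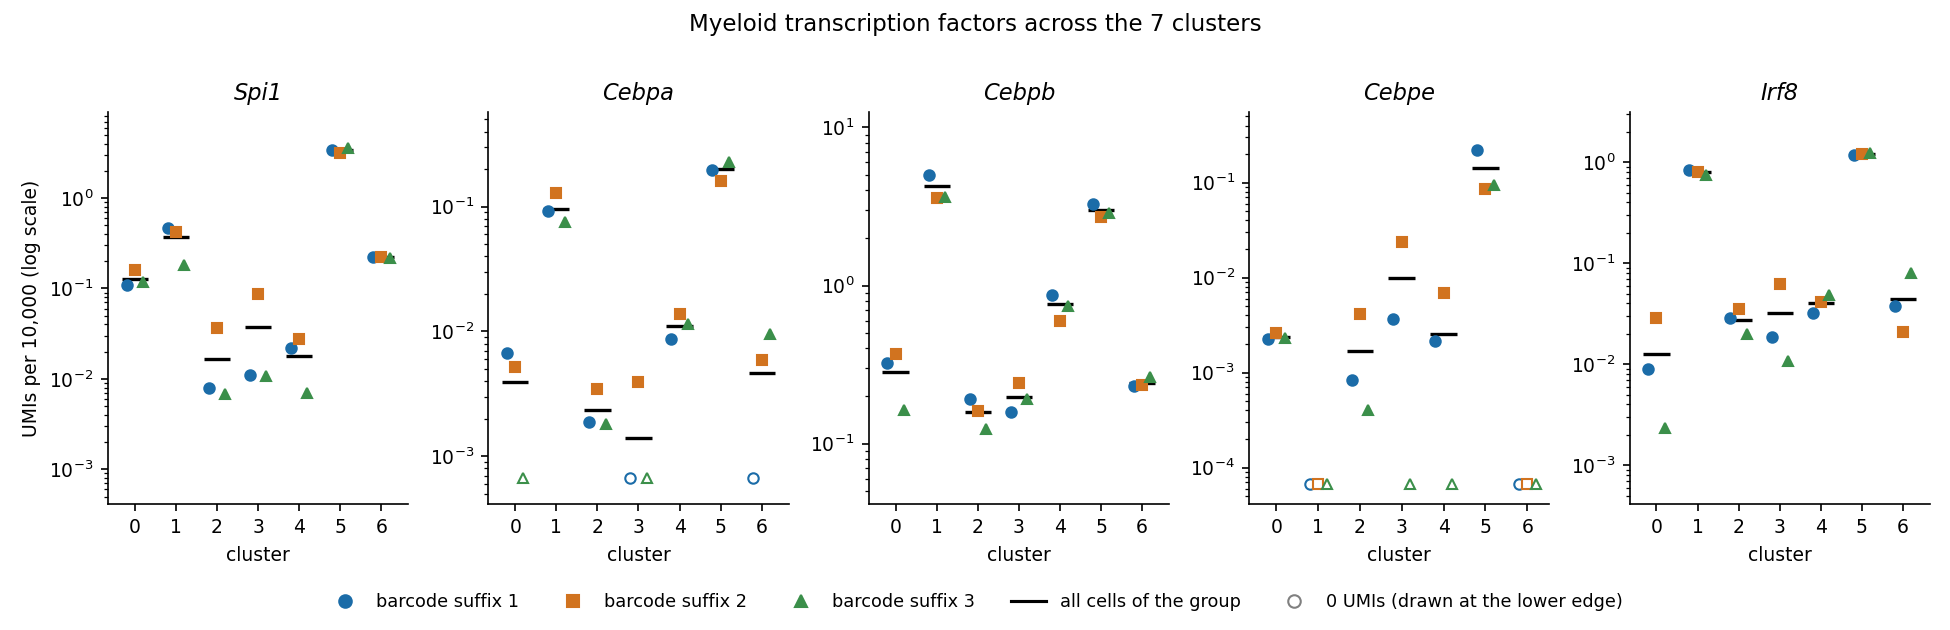
Level of the 5 measured genes (UMIs per 10,000 UMIs, logarithmic axis) in the 7 clusters, with each barcode suffix as a point beside the value over all cells. *Spi1*, *Cebpa*, *Cebpe* and *Irf8* were highest in cluster 5, and *Cebpb* was highest in cluster 1 (4.25 against 2.99).

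Against the endothelial clusters 0, 1 and 2 together, all 5 genes were called higher in cluster 5. A call needed a difference of at least 2-fold over all cells and the same direction in each suffix. This rule called 12.9% of the 15645 genes with at least 20 UMIs as higher and 23.7% as lower. *Cebpe* was 86.3-fold higher (log2 6.43, 95% interval 5.88 to 7.04), but the suffixes ranged from 4.47 to 7.94 on the log2 scale. *Spi1* was 77.5-fold higher (log2 6.28, interval 6.17 to 6.39). *Cebpa* was 27.3-fold and *Irf8* 18.2-fold higher, whereas *Cebpb* was only 7.86-fold higher (log2 2.97, interval 2.93 to 3.02) over a group that includes cluster 1. The differences of *Spi1* and *Cebpe* were the widest across suffixes, and suffix 2 gave the lowest *Cebpe* difference.

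Genes that act downstream of these factors were described as lists. Of 15 PU.1 target and pan-myeloid genes, 14 were higher in cluster 5, with a median log2 difference of 4.97, against −0.14 for all genes tested. Among them were *Csf1r*, the receptor for M-CSF (log2 6.65), *Coro1a*, an actin regulator of leukocytes (6.33), *Btk*, a cytoplasmic tyrosine kinase (6.20), and *Ptprc*, which encodes CD45 (6.02). Of 15 C/EBP-associated granule and granulocyte genes, 14 were higher, with a median of 6.31, led by the granule genes *Camp* (9.60) and *Elane* (8.22), the latter being neutrophil elastase. *Mpo*, by which cluster 5 is split below, is in this list. Of 14 monocyte and dendritic cell genes, 10 were higher and 3 lower, and of 27 transcription factors known to work with or against the members, 12 were higher and 4 lower, with a median of 0.65. The higher ones included *Ikzf1* (6.41) and *Myb* (5.73), a factor of haematopoietic progenitors, and the lower ones *Trib2* (−2.30) and *Trib1* (−1.90), pseudokinases that direct the degradation of C/EBPα. Of 18 acute-phase and inflammatory genes, many of them known C/EBPβ targets, 3 were higher and 7 lower in cluster 5, with *Csf3*, which encodes G-CSF, at −5.37 and *Saa3* at −3.84. The endothelial group of this comparison includes cluster 1, where most of these genes were high. Against clusters 0 and 2 without it, a comparison added after the values had been seen, 10 of the 18 were higher and 2 lower, and 14.2% of 15458 genes were called higher.

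Cluster 6, the cluster with the highest *Runx1*, carried megakaryocyte markers (6 markers summed to 200.5 UMIs per 10,000, against 1.59 in cluster 5). All 5 members were higher in cluster 5 than in cluster 6, in a comparison that called 14.1% of 13665 genes higher and 9.45% lower. *Cebpa* had 5 UMIs in cluster 6 and was 43.0-fold higher in cluster 5, with a wide interval on the log2 scale (5.42, 4.2 to 7.05). *Irf8* was 27.2-fold and *Cebpb* 12.3-fold higher. *Cebpe*, with no UMI in cluster 6, was at least 51.8-fold higher, taking 3 UMIs as the most a count of 0 allows over that cluster. *Spi1* was 15.2-fold higher, against 77.5-fold over endothelium, and cluster 6 was itself 13.5-fold above cluster 2 in *Spi1* (log2 3.75, interval 3.49 to 4.02). In the 274 cells of cluster 6 without *Ptprc*, *C1qb* or *Tyrobp* above 0.5 counts per 10,000 the *Spi1* level was 0.191, against 0.222 in all of its cells. Among the 15 PU.1 target and pan-myeloid genes 12 were higher in cluster 5 and 1, *Btk* (−1.57), was lower. All 15 granule and granulocyte genes were higher, 11 of 14 monocyte and dendritic cell genes were higher and 1 lower, and 12 of 18 acute-phase genes were higher and 2 lower. Of the 27 partner factors 12 were higher, *Gfi1*, a repressor needed in neutrophils, at 6.56 and *Maf*, a macrophage factor, at 5.47 among them. The 4 lower ones were *Gfi1b* (−2.92), *Gata1* (−2.80), *Tal1* (−1.87) and *Fli1* (−1.61), all known from megakaryocyte and erythroid cells.

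Cluster 1 was endothelial by its markers, which summed to 42.5 UMIs per 10,000, and held 799 cells of low depth (median 7875 UMIs). Compared with clusters 0 and 2, the other endothelial clusters, *Cebpb*, *Irf8*, *Cebpa* and *Spi1* were all higher there. The comparison called 19.6% of 14886 genes higher and 14.6% lower. *Irf8* was 30.3-fold higher (log2 4.92, interval 4.74 to 5.10) and *Cebpb* 25.2-fold higher (4.66, 4.58 to 4.73). *Cebpa* was 38.3-fold higher on 80 and 38 UMIs (5.26, 4.69 to 5.86), and *Spi1* 14.4-fold higher (3.85, 3.63 to 4.07). *Cebpe* had 0 UMIs in cluster 1 against 27 in clusters 0 and 2. It met the rule for a lower level only in this sense, since 3 UMIs in cluster 1 would be a higher level than the 27 UMIs in clusters 0 and 2, and no fold is given.

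The cells of cluster 1 had inflammatory genes at high levels. Of 18 acute-phase and inflammatory genes, 16 were higher and 1 lower in cluster 1 than in clusters 0 and 2, with a median log2 difference of 7.16 against 0.09 for all genes. These included *Ccl2*, a monocyte-attracting chemokine (8.88), *Il1b* (8.76), *Saa3* (8.40) and *Ptgs2*, the inducible cyclooxygenase (7.86). PU.1 target and pan-myeloid genes were higher for 13 of 15, such as *Cd14* (8.70) and *Tyrobp* (6.02), and granule and granulocyte genes for 6 of 12, such as *Lyz2* (8.55) and *Lcn2* (7.48), with 1 lower. Of 25 partner factors 13 were higher and none was lower, among them *Bcl6* (4.66), *Egr1* (4.58) and *Irf1* (4.38), and of 10 monocyte and dendritic cell genes 3 were higher and 1 lower. Macrophage markers moved with these values. All 8 were higher in cluster 1, their summed level was 5.18 UMIs per 10,000 (1.51 to 7.01 across suffixes) against 0.137 in cluster 0 and 0.116 in cluster 2, and none was at 0.

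To see how far the members in cluster 1 depended on cells with leukocyte RNA, its cells were divided by *Ptprc*, *C1qb* or *Tyrobp* above 0.5 counts per 10,000 (CPTT) in the cell. The division was made with the values already known. At the low depth of cluster 1, a cell without these 3 genes may still carry leukocyte RNA that was not counted. There were 128 cells with at least 1 of them (median depth 8915 UMIs) and 671 with none (7712). *Spi1* was at 1.8 UMIs per 10,000 in the cells with leukocyte genes (2.44, 1.70 and 0.874 in the suffixes) and at 0.0178, or 12 UMIs, in the cells without. Of its 311 UMIs in cluster 1, 299 were in cells that had leukocyte genes.

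*Cebpb* and *Irf8* behaved otherwise. *Cebpb* was at 8.54 UMIs per 10,000 in the cells with leukocyte genes (9.92, 7.99 and 6.84) and still at 3.19 in the cells without (3.81, 2.18 and 2.96), where 45.2% of cells had a UMI at a depth of 5000. *Irf8* was at 1.17 with and 0.711 without leukocyte genes (0.705, 0.791 and 0.667 in the suffixes without), with a UMI in 25.0% of the latter cells at the same depth. *Cebpa* was at 0.278 with and 0.0503 without, on 46 and 34 UMIs. The cells without leukocyte genes had the endothelial *Cdh5* at 11.1 and *Pecam1* at 8.92 UMIs per 10,000, against 5.32 and 4.04 in the cells with them. Set against cells of clusters 0 and 2 chosen in the same way, the cells of cluster 1 without leukocyte genes had 29.1-fold more *Irf8* (log2 4.86, interval 4.66 to 5.06), 20.0-fold more *Cebpb* (4.32, 4.24 to 4.41) and 22.7-fold more *Cebpa* (4.51, 3.77 to 5.24). For *Spi1* the difference was gone (−0.044, −1.01 to 0.78, with −2.09 to 2.16 across suffixes). *Ptprc* and *Tyrobp*, by which cells were left out, are on the list of PU.1 target and pan-myeloid genes. The choice of cells can therefore itself have removed *Spi1*, and its loss is not an independent result. In cluster 2, 230 of the 283 cells with leukocyte genes carried suffix 2, and the *Spi1* level of cluster 2 was also highest in that suffix (0.0366, against 0.00801 and 0.00686).

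**Figure D2:**
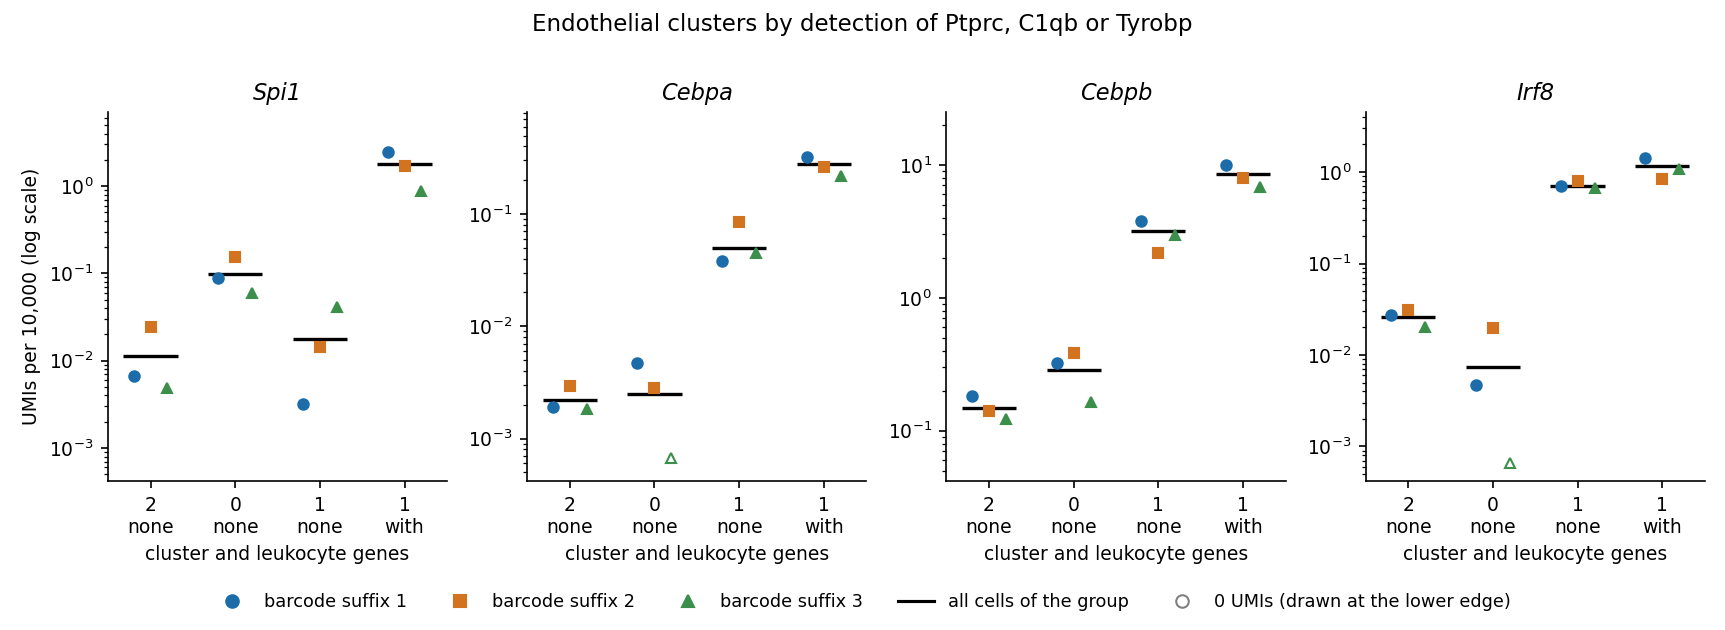
Level of *Spi1*, *Cebpa*, *Cebpb* and *Irf8* (UMIs per 10,000, logarithmic axis) in cells of clusters 2, 0 and 1 without leukocyte genes and in cells of cluster 1 with them, points being barcode suffixes. *Cebpb* (3.19) and *Irf8* (0.711) stayed high in cluster 1 without leukocyte genes, and *Spi1* (0.0178) did not. The leukocyte genes include *Ptprc* and *Tyrobp*, which are on the PU.1 target and pan-myeloid list.

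*Cebpb* and *Irf8* were the 2 members with the most UMIs in these endothelial cells, and the DNA just upstream of both was searched for short motifs. The 250 bases before the start of the gene were taken from RefSeq (GRCm38.p6) for 3 of the 5 measured genes, *Cebpa*, *Cebpb* and *Irf8*, the last with 2 starts and so 2 windows. The motifs, read on both strands, were the cAMP response element (CRE) as TGACGNNA, the interferon-γ activated STAT site (GAS) as TTCNNNGAA, the C/EBP site as TTGCNNAA, the PU.1 core as GAGGAA and 1 short form of the NF-κB site as GGGANTTCC. Other forms of the NF-κB site were not searched. Matches are in capitals within 30 bases of the forward strand, from chr2:167688721-167688750 for *Cebpb* and chr8:120736186-120736215 for *Irf8*.
Cebpb: agggggcgggcTGGCGTCAcccgcgtccgt
Irf8: tTTCTCGGAAagagagcgcTTCAGAGAAgg
The capitals in *Cebpb* are a CRE read on the reverse strand that begins 183 bases before the gene, and those in *Irf8* are 2 GAS matches, 171 and 153 bases before it. A CRE match was present in 5.66% of all 32851 upstream windows of this length and a GAS match in 7.02%. The C/EBP letters were in 9.56%, the PU.1 letters in 23.3% and the NF-κB letters in 1.43%, and in none of the 4 windows of these 3 genes. A match of letters does not show that a factor binds there.

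Free RNA from lysed cells gives every droplet a low level of the genes that are abundant in the pool. To judge the members outside cluster 5, their levels were expressed as a percentage of the level in cluster 5 and placed beside those of *Mpo*, *S100a8*, *S100a9*, *C1qb* and *Lyz2*, abundant genes of granulocytes and macrophages. In cluster 2 these tracers were at 0.396 to 1.31% of their level in cluster 5, and *Spi1* at 0.486%, *Cebpa* at 1.18% and *Cebpe* at 1.18% lay within that range. *Cebpb*, at 5.28%, and *Irf8*, at 2.28%, lay above it.

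In cluster 0 the tracers were at 0.205 to 2.17%, and *Cebpb* (9.43%) and *Spi1* (3.81%) lay above them. Cluster 4 had *Cebpb* at 25.4%, *Cebpa* at 5.51%, *Irf8* at 3.34% and *Cebpe* at 1.76%, all above the tracers' highest value of 1.17%, with *Cebpe* resting on 3 UMIs there. In cluster 3 *Cebpb*, *Irf8* and *Cebpe* were above the highest tracer (2.49%), *Cebpe* on 7 UMIs of which 6 carried suffix 2. In cluster 6 the tracers ranged from 0.422 to 28.9% and in cluster 1 from 0.445 to 518%, in each case with *Lyz2* at the top, and no member lay above them. *Cebpb* lay above the tracers in 4 of 6 clusters. The share of all genes above the tracers was not computed, so such values are not shown to be particular to the members. The tracers may themselves be expressed outside cluster 5, as *Lyz2* was higher in cluster 1 than in cluster 5, so a value within their range is not shown to be background.

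**Figure D3:**
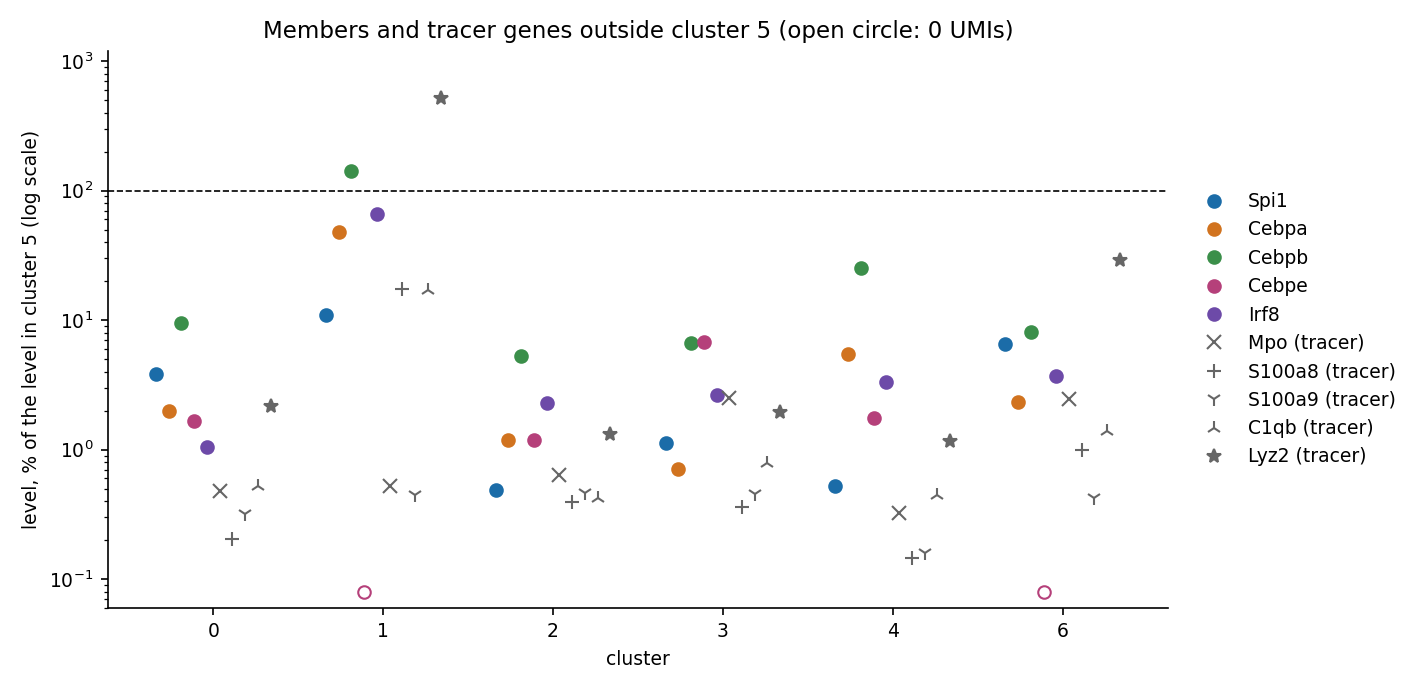
Level of the members and of 5 abundant granulocyte and macrophage genes in each cluster as a percentage of their level in cluster 5 (logarithmic axis, dashed line at 100%, open circles for 0 UMIs). *Cebpb* stood above all tracers in clusters 0, 2, 3 and 4, and at 142% in cluster 1.

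Cluster 0, the endothelial cluster at the start of the authors' numbering, had more *Spi1* and *Cebpb* than cluster 2, by 7.83-fold and 1.79-fold. Within it, 70 cells had *Runx1*, the factor required for blood emergence from endothelium, above 0.5 CPTT, and 658 did not, a division again chosen after the values had been seen. *Spi1* was at 0.687 UMIs per 10,000 in the *Runx1* cells (0.714, 0.836 and 0.470) and at 0.0482 in the others, a difference of 14.3-fold (log2 3.83, interval 3.35 to 4.34, with 2.60 to 5.51 across suffixes). *Cebpb* was at 1.29 (1.30, 1.67 and 0.829) against 0.136, a 9.47-fold difference (log2 3.24, interval 2.93 to 3.56). At 5000 UMIs, *Spi1* was detected in 22.9% of the *Runx1* cells against 1.84% of the others, and *Cebpb* in 40% against 7.36%.

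The other members had too few UMIs to tell whether they followed. *Irf8* had 3 UMIs in the 70 *Runx1* cells and 13 in the 658 others, *Cebpa* 1 and 4, and *Cebpe* 1 and 2. As levels, *Irf8* was at 0.0189 against 0.0118 UMIs per 10,000 (log2 0.68, interval −1.77 to 2.54). The log2 intervals of *Cebpa* (−4.83 to 4.13) and *Cebpe* (−4.09 to 6.06) were wider. In the *Runx1* cells *Ptprc* was at 0.0189 and *Mpo* at 0.0063 UMIs per 10,000, against 0.0127 and 0.0164 in the others, and *C1qb* was at 0.101 against 0.0273. *Gfi1*, a direct target of RUNX1 in the endothelial to haematopoietic transition, was at 1.07 against 0.0264, and *Cdh5* at 5.73 against 9.82. The median depth was 20202.5 UMIs in the *Runx1* cells and 13635.5 in the others. Within single cells, all 26 *Runx1* cells with *Spi1* above 0.5 CPTT had *Cdh5* above it as well, 15 had *Gfi1* and 3 had leukocyte genes. Of the 38 *Runx1* cells with *Cebpb*, all had *Cdh5*, 28 had *Gfi1* and 3 had leukocyte genes. Of all 70 *Runx1* cells, 5 had leukocyte genes. Cluster 0 is the cluster with the highest *Cdh5*, so *Cdh5* in all of these cells does not set them apart. The shares with *Cdh5* and *Gfi1* over all 70 cells are not given here. The counts are therefore not shown to be particular to *Runx1* cells with *Spi1* or *Cebpb*. When cells with leukocyte genes were left out, a choice made with the values known, 65 *Runx1* cells remained, with *Spi1* at 0.653 (0.598, 0.868 and 0.470) against 0.0189 in the other cells of cluster 0 and *Cebpb* at 1.34 against 0.137.

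In cluster 1 the *Spi1* of the *Runx1* cells lay in cells with leukocyte genes. Over all cells of cluster 1, the 63 *Runx1* cells had *Spi1* at 2.0 against 0.158 and *Cebpb* at 10.7 against 3.41, but 34 of them had leukocyte genes, and so did all 25 with *Spi1* above 0.5 CPTT. The 29 *Runx1* cells without leukocyte genes had no *Spi1* UMI, where 3 would be 0.0900 per 10,000, and *Cebpb* at 7.59 against 2.96. As above, leaving out cells by *Ptprc* and *Tyrobp* can itself have removed *Spi1*, so no contrast with cluster 0 is drawn from this. In cluster 2, 27 of the 94 *Runx1* cells had leukocyte genes. *Spi1* was at 0.273 against 0.0140 in all cells of cluster 2, and at 0.189 against 0.0100 without those that had leukocyte genes, where *Cebpb* was at 0.903 against 0.143.

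Cluster 5, with 1572 cells, was divided by *C1qb*, a complement gene of macrophages, and *Mpo*, the myeloperoxidase gene of granulocyte progenitors, each above 0.5 CPTT. There were 694 cells with *C1qb* only (44.1%), 419 with *Mpo* only (26.7%), 76 with both (4.83%) and 383 with neither (24.4%). Near the threshold, 50 cells had *C1qb* above 0 up to 0.5 CPTT and 20 from 0.5 to 1, while for *Mpo* the numbers were 147 and 88. The *Mpo* division was therefore the less sharp of the 2. Median depths were 34122.5, 41096, 36861.5 and 32739 UMIs in the 4 classes in that order. Macrophage markers summed to 43.7 UMIs per 10,000 in the *C1qb*-only cells and 0.836 in the *Mpo*-only cells, and granulocyte progenitor markers to 1.54 and 26.2, both lists holding a gene used for the division.

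Among the 3 larger classes, *Spi1* was highest in the *C1qb*-only cells at 4.6 UMIs per 10,000 (4.48, 4.32 and 4.94), followed by 2.95 in the *Mpo*-only cells (3.04, 2.78 and 2.95) and 1.5 in the cells with neither (1.54, 1.28 and 1.6). The 3 ranges did not overlap. *Cebpb* took the same order, with 3.92 (4.21, 3.76 and 3.69), 2.72 (2.88, 2.47 and 2.69) and 1.47 (1.71, 0.986 and 1.53). Between *C1qb*-only and *Mpo*-only cells the differences were 1.56-fold for *Spi1* (log2 0.64, interval 0.59 to 0.69) and 1.44-fold for *Cebpb* (0.53, 0.48 to 0.58), the same in direction in each suffix and below 2-fold.

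*Irf8* separated the 2 classes further. Its level was 1.83 UMIs per 10,000 in the *C1qb*-only cells (1.73, 2.02 and 1.81) and 0.807 in the *Mpo*-only cells (0.784, 0.686 and 0.904), a 2.27-fold difference (log2 1.18, interval 1.10 to 1.27, with 1.0 to 1.56 across suffixes). At 5000 UMIs, 53.2% and 18.4% of the cells had a UMI. At the deposited depth 84.3% of *C1qb*-only and 28.9% of *Mpo*-only cells had *Irf8* above 0.5 CPTT, so the *Irf8* of the latter class came from a minority of its cells.

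*Cebpe* went strongly the other way, and *Cebpa* weakly so. *Cebpe* had 863 UMIs, or 0.461 per 10,000, in the *Mpo*-only cells (0.698, 0.295 and 0.288) and 12 UMIs, or 0.00474, in the *C1qb*-only cells, so that it was 97.3-fold lower in the latter (log2 −6.60, interval −7.56 to −5.79). In the *Mpo*-only cells 9.09% had a UMI at 5000 UMIs, against 0.289% of *C1qb*-only cells and 0.186% of the cells of cluster 2. *Cebpa* was at 0.213 in the *C1qb*-only cells (0.216, 0.197 and 0.224) and 0.292 in the *Mpo*-only cells (0.291, 0.205 and 0.345). The difference of −0.45 on the log2 scale (interval −0.63 to −0.28) ranged from −0.63 to −0.06 between suffixes, and the 2 classes overlapped. By the same rule, which called 8.96% of 12728 genes higher and 7.15% lower in *C1qb*-only cells, *Irf8* was higher and *Cebpe* lower, and *Spi1*, *Cebpb* and *Cebpa* were neither. If the cells were divided at 5 CPTT in place of 0.5, *Cebpa* was also called lower, at −1.26.

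The 76 cells with both *C1qb* and *Mpo* had *Spi1* at 4.69, *Cebpb* at 4.08 and *Irf8* at 2.06 UMIs per 10,000, near the levels of the *C1qb*-only cells. *Irf8* was 2.55-fold above its level in *Mpo*-only cells (log2 1.35, interval 1.21 to 1.49), and *Cebpe* had no UMI, where 3 would be 0.0103 per 10,000. Scrublet had marked 1 of these cells. In *Cebpe* and *Irf8* the cells with both genes were thus near the *C1qb*-only cells. In their marker sums they were not. Macrophage markers summed to 19.3 UMIs per 10,000, against 43.7 in *C1qb*-only cells, and granulocyte progenitor markers to 6.48 against 1.54. Both lists hold a gene used for the division. A droplet of a *C1qb* cell with free *Mpo* RNA cannot be told apart from a cell that expressed both.

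**Figure D4:**
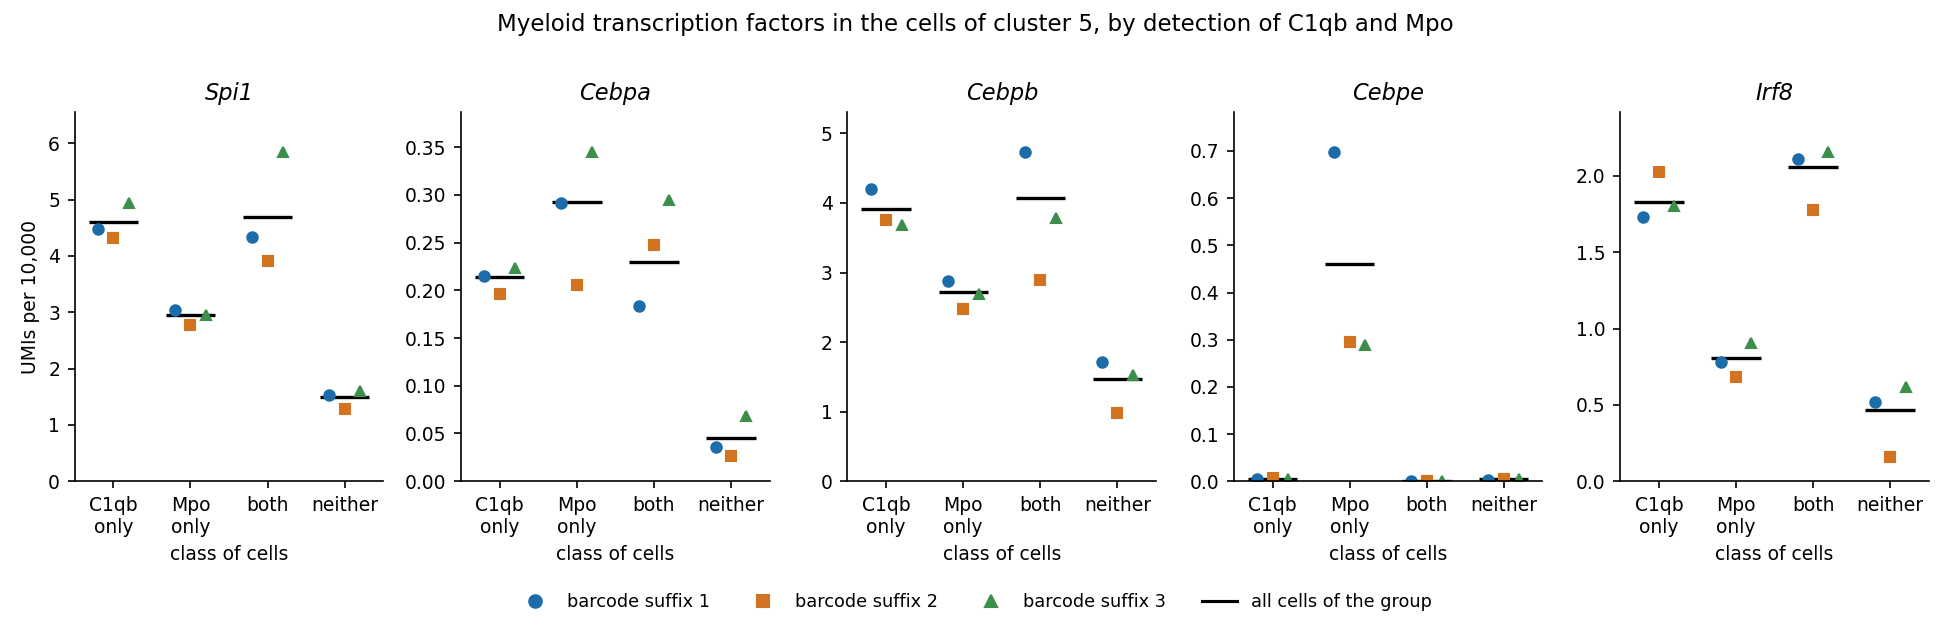
Level of the 5 measured genes (UMIs per 10,000) in the 4 classes of cluster 5 given by *C1qb* and *Mpo* above 0.5 CPTT, points being barcode suffixes. *Irf8* was at 1.83 with *C1qb* only and 0.807 with *Mpo* only, and *Cebpe* at 0.00474 and 0.461.

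Lists of downstream genes divided the 2 classes in the same comparison, with a median log2 difference of −0.07 for all genes tested. Of 15 granule and granulocyte genes, 11 were lower and 2 higher in *C1qb*-only cells, with a median of −6.91. The secondary granule genes *Camp* (−10.80) and *Ngp* (−10.56), known targets of C/EBPε, differed most, followed by *S100a9* (−8.89) and *Ctsg* (−8.62), whereas *Mmp9*, a metalloproteinase that macrophages also make, was higher (6.12). Of 15 PU.1 target and pan-myeloid genes 7 were higher and none lower, with a median of 0.78, and *Cd68* (2.96) and *Csf1r* (2.93) were among them. Of 13 monocyte and dendritic cell genes 8 were higher and 2 lower, with *Siglech*, a plasmacytoid dendritic cell and microglial gene, at 5.51, *Ctss*, a lysosomal protease induced by interferon, at 4.26 and *Cx3cr1*, the fractalkine receptor, at 3.78. The lower ones were *Ly6c2* (−6.19), a gene of inflammatory monocytes, and *Flt3* (−2.75), a progenitor and dendritic cell receptor. Of 16 acute-phase genes 9 were higher, with *Ccl2* (4.34) and *Il1b* (4.33) leading, and 3 lower, *Lcn2* (−7.64) among them.

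Of 25 partner factors 7 were higher and 5 lower. The higher ones included *Maf* (4.55) and *Egr2* (3.94), which act in macrophages, and the lower ones *Gfi1* (−5.09), *Gata1* (−4.85), *Gfi1b* (−4.85) and *Gata2* (−4.17). The last 3 are known from erythroid, megakaryocyte, mast and basophil cells. All 4 eosinophil markers tested and all 4 mast cell and basophil markers tested were lower in *C1qb*-only cells as well, and 5 of 6 neutrophil markers. The *Mpo*-only class thus held genes of several granulocyte lineages beside *Cebpe*. Neutrophil markers summed to 26.3 UMIs per 10,000 there, with 9.85 to 40.2 across suffixes, and whether their spread and that of *Cebpe* came from the same cells was not tested.

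The members took different courses along the *Mpo* level. Among cells of cluster 5 with *C1qb* at or below 0.5 CPTT, 6 bins were set by *Mpo* after the values had been seen: no UMI (303 cells), up to 0.5 CPTT (80), 0.5 to 1 (65), 1 to 5 (170), 5 to 20 (121) and above 20 (63). The first 2 bins are the cells with neither gene, of which 149 had the erythroid factor *Klf1*, so each series is also given without *Klf1* cells (above 0.5 CPTT). *Spi1* was at 1.48, 1.53, 2.34, 2.53, 3.23 and 4.07 UMIs per 10,000 in all cells, and at 2.92, 2.79, 2.62, 2.75, 3.38 and 4.10 without *Klf1* cells. *Cebpb* was at 1.49, 1.41, 2.05, 2.23, 3.17 and 3.77, and at 2.81, 2.32, 2.33, 2.44, 3.28 and 3.78 without *Klf1* cells. The steps over the first 4 bins were thus absent without *Klf1* cells, and both genes were highest above 20 CPTT in either series.

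*Cebpa* stayed between 0.0386 and 0.115 in the first 4 bins and was at 0.443 and 0.690 in the last 2. Without *Klf1* cells it was at 0.0856, 0.0627, 0.0564, 0.116, 0.437 and 0.695. *Cebpe* differed only in the highest bins. It was between 0.00227 and 0.00513 in the first 4 bins, on 1 to 5 UMIs each, then at 0.224 (0.189, 0.149 and 0.325) and at 2.54 (4.38, 2.94 and 0.966) in the cells above 20 CPTT. In that last bin 57.1% of the 63 cells had *Cebpe* above 0.5 CPTT, and the neutrophil gene *S100a8* was at 74.5, 40.6 and 12.1 UMIs per 10,000 in the suffixes, in the same order as *Cebpe*. *Irf8* had no such course, at 0.481, 0.441, 0.731, 0.743, 0.985 and 0.700, and the suffix ranges of all neighbouring bins overlapped. Without *Klf1* cells *Irf8* was between 0.716 and 1.05 in the 6 bins. *Cebpe* without them was between 0.00434 and 0.0107 in the first 4 bins and at 0.239 and 2.60 in the last 2. Among these cells with *C1qb* at or below 0.5 CPTT, *Cebpa* was thus above its lower bins from 5 CPTT of *Mpo*, and *Cebpe* lay mostly above 20 CPTT. Over all of cluster 5 *Cebpa* was not found mainly at high *Mpo*, as *C1qb*-only cells held 540 of its 1218 UMIs there.

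**Figure D5:**
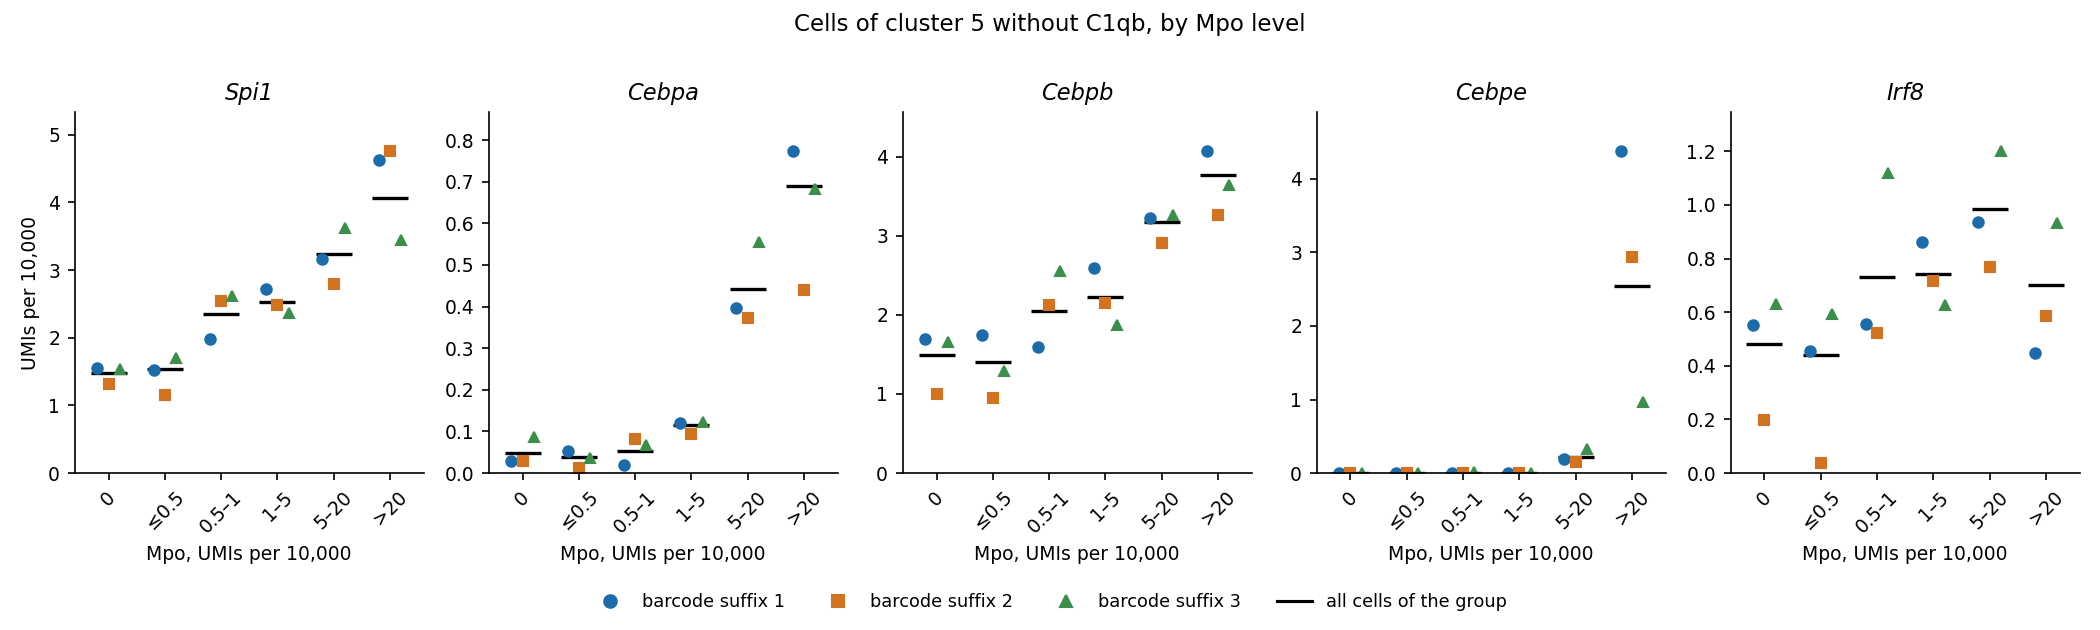
Level of the 5 measured genes (UMIs per 10,000) in cells of cluster 5 with *C1qb* at or below 0.5 CPTT, in 6 bins of *Mpo* from no UMI to above 20 CPTT, points being barcode suffixes. The first 2 bins include the cells with *Klf1*. *Spi1* went from 1.48 to 4.07, *Cebpe* from 0.00513 to 2.54 with 734 UMIs in the last bin and 125 in the bin before, and *Irf8* from 0.481 to 0.700 with its highest value, 0.985, in the bin before.

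Along *C1qb*, among cells with *Mpo* at or below 0.5 CPTT, the bins were no UMI (366 cells), up to 0.5 CPTT (17), 0.5 to 5 (109), 5 to 20 (345) and above 20 (240). *Spi1* was at 1.40, 2.58, 3.36, 4.55 and 5.22 UMIs per 10,000 and *Cebpb* at 1.36, 2.70, 3.36, 3.91 and 4.18. *Irf8* was at 0.391 without *C1qb*, at 1.37 in the 17 cells up to 0.5 CPTT, and then level at 1.76, 1.76 and 1.99. *Cebpa* was at 0.0430, 0.0716, 0.168, 0.147 and 0.354, so that it too was highest in the cells with the most *C1qb*. *Cebpe* had at most 6 UMIs in any bin. *Csf1r* went from 0.272 in the first to 5.40 in the last bin. Without *Klf1* cells *Spi1* was at 2.72, 4.44, 3.47, 4.57 and 5.22, *Cebpb* at 2.46, 4.5, 3.46, 3.94 and 4.18 and *Irf8* at 0.801, 2.38, 1.83, 1.77 and 1.99, the second bin then holding only 10 cells. In both series all 3 genes were lowest in the cells without a *C1qb* UMI. From 0.5 CPTT on *Spi1* and *Cebpb* were higher in each further bin, and *Irf8* lay between 1.76 and 1.99.

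The 383 cells with neither gene had the lowest *Spi1*, *Cebpb*, *Cebpa* and *Irf8* of the 4 classes. *Spi1* was 3.07-fold below its level in *C1qb*-only cells and *Irf8* 3.91-fold below, at 0.469 UMIs per 10,000 (0.521, 0.162 and 0.618). Erythroid markers were at 10.9 UMIs per 10,000 in sum in this class (2.74 to 17.2 across suffixes), with all 5 detected. When the class was divided by the erythroid factor *Klf1* above 0.5 CPTT, a choice made after the values had been seen, 149 cells were above and 234 were not. The cells with *Klf1* had *Spi1* at 0.180 and the others at 2.88, close to the 2.95 of *Mpo*-only cells. *Cebpb* was at 0.333 and 2.65, *Irf8* at 0.0124 and 0.947, and *Cebpa* at 0.0138 and 0.0782. *Gata1*, whose protein and PU.1 inhibit each other, was at 1.05 with *Klf1* and 0.0796 without, and *Csf1r* at 0.00691 and 0.714. The lowest *Spi1*, *Cebpb* and *Irf8* of the class with neither gene thus lay in its *Klf1* cells. The cells without *Klf1* had these genes near the levels of *Mpo*-only cells and below those of *C1qb*-only cells. *Irf8* varied there, at 1.03, 0.344 and 1.18 in the suffixes. *Cebpa* stayed below both classes without *Klf1* cells too.

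Members were detected together in most cells of cluster 5. At 5000 UMIs, 227 of 1568 cells (14.5%) had none of the 5, 381 (24.3%) had 1, 519 (33.1%) had 2, 393 (25.1%) had 3, 48 (3.06%) had 4 and no cell had all 5. At least 2 were found in 61.2% of cells (95% Clopper-Pearson interval 58.8 to 63.6), against 19.1% in cluster 1, 4.53% in cluster 6 and between 0.874% (cluster 2) and 2.93% (cluster 3) in the rest. *Cebpb* was found in 71.3% of cells with *Spi1* and 43.9% of cells without. Within the *C1qb*-only cells the shares were 77.9% and 71.5%, within the *Mpo*-only cells 63.0% and 46.8%, and within the cells with neither gene 61.3% and 24.9%. *Irf8* was in 40.5% of cells with *Spi1* and 18.8% of cells without. Its shares were 54.7% and 46.3% within the *C1qb*-only cells, 22.3% and 9.52% within the *Mpo*-only cells, and 21.3% and 8.14% within the cells with neither gene. In the small class with both *C1qb* and *Mpo*, *Cebpb* was in 76.2% of 63 cells with *Spi1* and 76.9% of 13 cells without. Among the other classes the gap for *Cebpb* was smallest in the *C1qb*-only class and widest in the class with neither gene, which holds 149 *Klf1* cells.

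*Irf8* and *Cebpe* were seldom in the same cell. Of 41 cells with *Cebpe*, 3 had *Irf8* (7.32%, interval 1.54 to 19.9), compared with 34.5% (32.1 to 37.0) of cells without *Cebpe*. Inside the *Mpo*-only class it was 2 of 38 (5.26%, interval 0.644 to 17.7) against 19.7% (15.9 to 24.1). The interval inside the class overlapped with that of the other cells, whereas over cluster 5 the intervals did not overlap. Whether the shares differ within *Mpo*-only cells was not tested. *Spi1*, by contrast, was in 80.5% of the cells with *Cebpe* and *Cebpb* in 78.0%.

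Last, genes with the most similar pattern were found by Pearson's r of log2 levels (with 0.05 added) over 30 points, namely 6 clusters and the 4 classes of cluster 5, each in 3 suffixes. The points share libraries and clusters, and r is given as a description. For *Spi1* they were *Il17ra* (0.98), *Apbb1ip* (0.98), *Arhgap30* (0.98), *Ptprc* (0.97) and *Fmnl1* (0.97). For *Cebpa* they were *Igsf6* (0.98), *Fcgr3* (0.97), *Ncf4* (0.96), *Clec5a* (0.96) and *Cd53* (0.96). *Cebpb* was closest to *Psmb8* (0.96), *Ly6e* (0.95), *Irf8* (0.94), *Psmb9* (0.94) and *Cybb* (0.94). *Psmb8* and *Psmb9* encode immunoproteasome subunits and, like *Ly6e*, are known to be induced by interferon. *Irf8* was closest to *Cd53*, *Ccl3*, *Unc93b1*, *Tyrobp* and *Cybb*, all at 0.98, and *Cebpe* to *Prg3* (0.99), *Ctsg* (0.99), *Fcnb* (0.99), *Ms4a3* (0.99) and *S100a9* (0.98), genes of granules and granulocytes. Between the members, r was between 0.81 and 0.94 for every pair of *Spi1*, *Cebpa*, *Cebpb* and *Irf8*, and between 0.25 and 0.49 for *Cebpe* with each of the others.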

How the data were processed

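Reads of 10x Genomics 3′ libraries were aligned to the mm10 mouse genome and aggregated with Cell Ranger 3.1.0 by the authors, who also name Seurat 3.1.5. The deposited tables hold raw UMI counts per gene and cell, and a table of natural log values that the authors normalized to 10,000 UMIs per cell. Recomputing the latter from the counts gave the same values to within 6.22e-15, and the counts were used. Cluster numbers are the authors' own. Of 27998 Ensembl identifiers, 27645 were matched to names, and identifiers of 1 name were summed, giving 27994 genes. The members and gene lists were chosen with earlier results of these data known.

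Groups were compared by summed UMIs per 10,000, over genes with at least 20 UMIs in both groups together. A gene was called when it differed at least 2-fold over all cells and in the same direction in each of the 3 barcode suffixes. With 1 sample no p-value was computed, and intervals are exact (Poisson, Clopper-Pearson or conditional binomial). The procedure was run on simulated Poisson counts with planted 4-fold changes. These counts had no spread between cells or suffixes beyond depth and counting error. The run therefore does not show how the rule behaves with the spread of real cells. For shares of cells, each cell was thinned to 5000 UMIs and the 90 shallower cells were left out. Named genes are the members, up to 4 genes per list and direction with the largest log2 ratio among those called, and the 5 genes most like each member. *Gfi1*, *Ptprc*, *Mpo*, *C1qb*, *Cdh5*, *Pecam1*, *Csf1r*, *Gata1* and *S100a8* beside the divisions chosen after seeing the data were named after their values were seen. Scanpy 1.11.5 and scipy 1.17.1 were run under Python 3.11.15. *Cebpd* was not analysed here.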

Additional observations from a re-analysis of the deposited data

How the results depend on the processing

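No paired test was made, because the matrix was treated as 1 sample whose barcode suffixes could not be tied to pool labels. Differences within each suffix are given as a spread. Of 208 alternative values of the 18 log2 ratios of members, 139 lay within the 95% interval of the value reported, 68 moved beyond it in the same direction and 1 reversed. That was *Spi1* in cluster 1 against clusters 0 and 2, which went from 3.85 to −0.044 when endothelial cells with leukocyte genes were left out, an alternative chosen after seeing the data. At 4-fold in place of 2-fold the genes called fell from 5729 to 3310 (cluster 5 against clusters 0, 1 and 2), from 3224 to 1680 (against cluster 6), from 5088 to 2679 (cluster 1) and from 2050 to 856 (*C1qb*-only against *Mpo*-only cells), and of the members only *Cebpe* remained in the last, 1 of 2. At a minimum of 200 UMIs the counts were 1962 against cluster 6 and 1113 for the classes of cluster 5, and 3 members (*Spi1*, *Cebpb* and *Irf8*) were called in cluster 1. Leaving out 1 barcode suffix at a time gave 5409 to 5610, 3073 to 3383, 4879 to 5208 and 1899 to 2157 genes. *Cebpe* was no longer called in cluster 1 without suffix 2 or after thinning, and *Cebpa* was called lower in *C1qb*-only cells when these were divided at 5 CPTT. The share of cells of cluster 5 with at least 2 members was 61.2% at 5000 UMIs, 78.3% at 10000 UMIs, 79.1% above 0.5 CPTT at the deposited depth and 59.0 to 64.5% without 1 suffix. *Cebpa* and *Cebpe* rest on few UMIs outside cluster 5, and free RNA was not removed.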
